A study of Sorghum bicolor with 9 samples.

Results

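The SPX-labelled genes of sorghum are the 9 of 35281 genes in the deposited table whose protein family label reads SPX. They were chosen by that label and by their raw counts, of which at least 50 over the 9 libraries were required. The label itself was chosen with earlier results of these data known. All 9 labelled genes met the second condition, with totals of 442 (Sobic.004G339800) to 14787 counts (Sobic.001G259100), so no labelled gene lay below it. All 9 were also among the 22356 genes that passed the filter on low counts. Sobic.001G259100 and Sobic.001G342400 reached the minimum of that filter (10 counts at the median depth, or 0.487 CPM, counts scaled to a common library total) in the 3 moderate libraries and in no other, and Sobic.003G183600 in those and 1 control library. These 3 genes entered the test through the group in which they were high. Counts over the members, and the p-values and ranks of these 3 genes, are therefore given as a description only.

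The SPX domain is named after the proteins SYG1, Pho81 and XPR1 and binds inositol pyrophosphates, small molecules whose level in plant cells follows the supply of phosphate. Stand-alone SPX proteins hold back the PHR transcription factors of the phosphate starvation response while phosphate is plentiful, and in Arabidopsis and rice the transcripts of several of them accumulate when phosphate runs short. Other plant proteins carry the domain beside a second part: PHO1 proteins load phosphate into the xylem, SPX-MFS proteins move it into the vacuole, and NLA is a ubiquitin ligase that removes phosphate transporters. The table gives the label alone, so which of the 9 genes belongs to which class is not known here, and no protein or promoter sequence was used here.

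The plants were wild-type Sorghum bicolor of the inbred BTx623, from which the reference genome of the species was made. Leaves came, at the 4-leaf stage, from a control group grown without stress, a moderate group in saline-alkali soil of 3‰ salt and pH 8.1, and a severe group in such soil of 5‰ salt and pH 8.1. Each group held 3 biological replicates with 1 RNA sequencing library each. A second label of the stressed groups writes those salt digits as percent. How much phosphate any of the soils held is not stated in the labels.

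Libraries held 17792497 to 22449989 assigned reads. The level that an observed 0 still leaves possible, at 3 counts, was 0.134 to 0.169 CPM by library before normalisation, for counting error only. Levels are CPM normalised between libraries, in which the library totals were scaled by factors of 0.904 to 1.02 in control, 1.33 to 1.41 in moderate, and 0.512, 0.858 and 0.973 in severe replicates 1, 2 and 3. Severe replicate 1 stood apart from the other 8 libraries in this factor. In that library 2 counts already read 0.190 normalised CPM, so an observed 0 leaves a higher level possible there. As leaf markers, labels of chlorophyll a-b binding proteins, the Rubisco small subunit and PEP carboxylase were looked for, and no gene of the table carries them. The label of the Rubisco large subunit, added after the data were seen, is carried by 2 genes. Their summed level was 3.65 to 7.25 CPM in control, 3.06 to 5.85 CPM in moderate and 0.534 to 0.857 CPM in severe libraries, lower in every severe library than in the other 6. Only the label is known, so whether these 2 low-level genes stand for the Rubisco of the leaf is not known here. Of 49 histone-labelled genes, a marker of dividing cells, 46 had counts, and their summed level was 1147 to 1290 CPM in control, 1771 to 1839 CPM in moderate and 1577 to 2869 CPM in severe libraries. The part of these markers in the results below was not tested, and in whole leaves fewer cells of a type and less RNA per cell cannot be told apart.

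The SPX-labelled transcripts were high in moderate leaves and low in both control and severe leaves. Of the 9 genes, 8 rose and 0 fell in moderate against control leaves, where 8.94% of all tested genes rose and 8.17% fell, 17.1% in all. The median log2 change was 3.03 over the 9 genes and 0.01 over all 22356. In severe against moderate leaves 8 fell and 0 rose, where 33.6% of all tested genes fell and 29.6% rose, 63.2% in all. In severe against control leaves 2 fell and 0 rose, where 34.9% of all tested genes fell and 31.6% rose, 66.5% in all. Each pair of these comparisons shares the libraries of 1 group, so they are not independent. Sobic.001G259100, Sobic.001G342400 and Sobic.003G183600 entered the test through their moderate libraries. The family was also chosen with earlier results of these data known, so the counts of members are a description only. In the authors' deposited table the genes with an adjusted p under 0.05 were the same 8, 8 and 2.

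**Figure D1:**
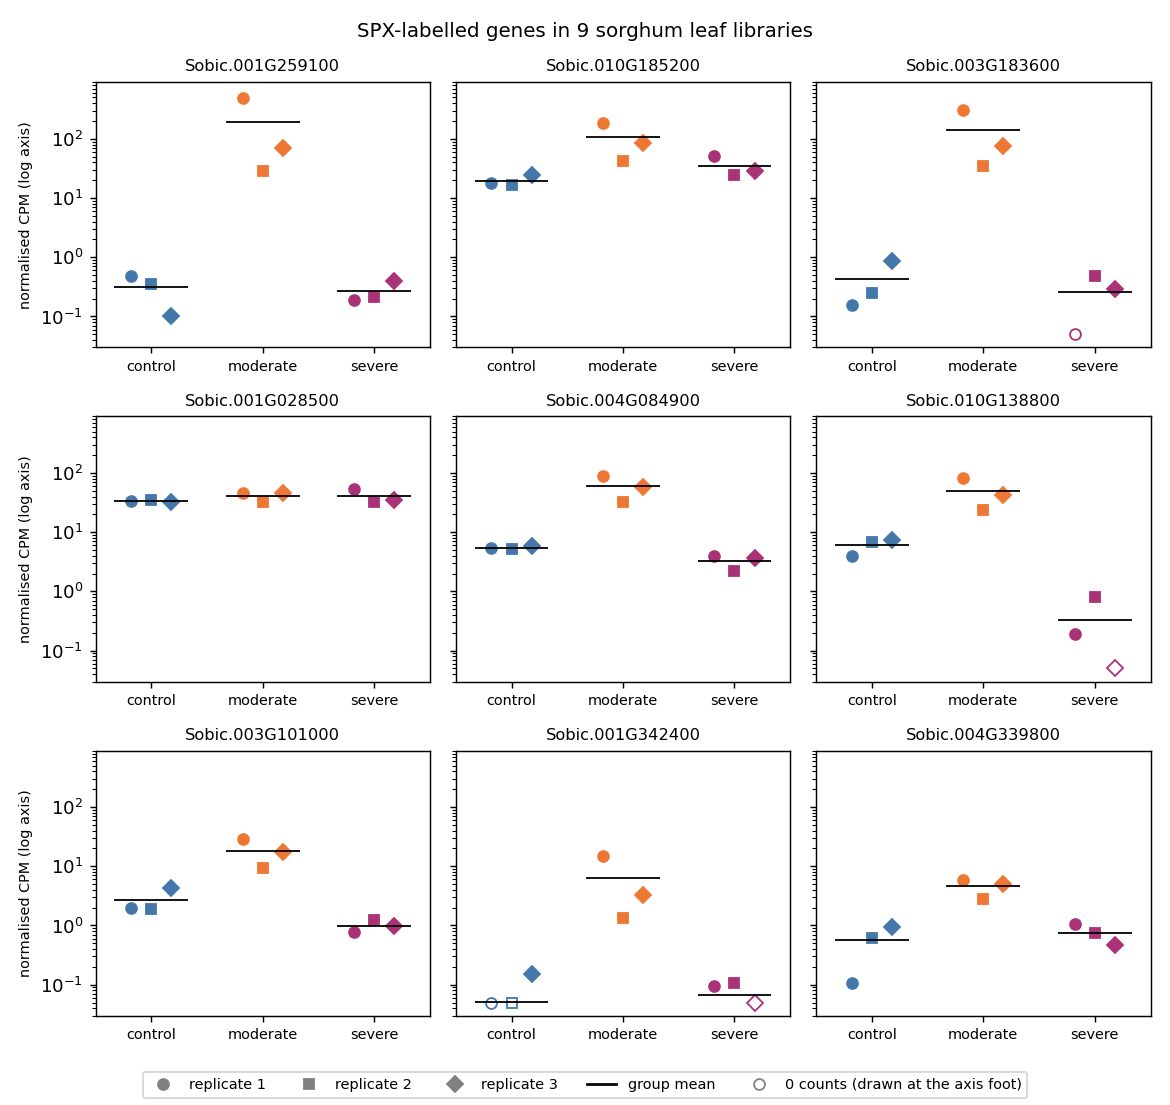
Normalised CPM (log axis) of the 9 SPX-labelled genes in each control, moderate and severe library, with symbols for replicates 1 to 3, a line at each group mean and open symbols for libraries with 0 counts. In 8 of the 9 panels the 3 moderate libraries sit above the 3 control libraries, and Sobic.001G028500 is the exception.

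The widest range was shown by the genes with the shortest genomic spans, Sobic.001G259100 and Sobic.003G183600. Sobic.001G259100 (chromosome 1, 31011171 to 31012741, minus strand, span 1571 bp) had 0.476, 0.355 and 0.101 CPM in control replicates 1 to 3, 490.2, 28.1 and 70.3 CPM in moderate replicates 1 to 3, and 0.190, 0.214 and 0.405 CPM in severe replicates 1 to 3. Every moderate library lay far above the other 6, and the severe and control libraries overlapped. It rose by 9.28 (SE 2.24) on the log2 scale in moderate against control leaves, with an edgeR adjusted p = 0.00293 (quasi-likelihood F-test, Benjamini-Hochberg). The log2 rise was 7.31 without moderate replicate 1, which also brought the moderate mean to 49.2 CPM from the 3 libraries' 196 ± 255 CPM (SD). By size of log2 change it ranked 8 among the 22356 tested genes, which it entered through its moderate libraries alone.

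Sobic.003G183600 (chromosome 3, 48817705 to 48819078, plus strand, span 1374 bp) followed closely. Its control libraries had 0.159, 0.254 and 0.859 CPM, its moderate libraries 309.6, 35.0 and 76.2 CPM, and its severe libraries 0 (no counts), 0.480 and 0.289 CPM. The moderate libraries again stood clear of all others, and severe and control overlapped. It rose by 8.34 (SE 2.00) on the log2 scale in moderate against control leaves (edgeR adjusted p = 0.00276) and ranked 12 among all tested genes. The value was 7.03 without moderate replicate 1, with a moderate mean of 55.6 against 140.3 ± 148 CPM for all 3, and 9.36 without control replicate 3.

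Sobic.001G342400 (chromosome 1, 62968268 to 62969946, minus strand, span 1679 bp) showed the same shape at a low level. In raw counts it had 0, 0 and 3 in control, 353, 40 and 96 in moderate and 1, 2 and 0 in severe libraries. Its pooled moderate counts were 114 times those of control after normalisation, with a 95% counting interval of 38.7 to 553 that does not cover the spread between libraries. The edgeR adjusted p was 0.00964 and stayed at or below 0.0474 under every alternative run. This gene too passed the filter through its moderate libraries alone. All 3 control counts came from control replicate 3, without which the control was at 0, and 353 of the 489 moderate counts came from moderate replicate 1, without which the fitted log2 change was 5.34 in place of 6.80. Severe and control libraries held 3 counts each, too few for a fold between them.

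The 6 genes with longer spans, of 3693 to 5661 bp, all had counts in every control library. So had Sobic.001G259100 and Sobic.003G183600. Among the 6 genes with longer spans, Sobic.010G185200 (chromosome 10, 52497832 to 52502154, minus strand) was the most abundant in moderate leaves. Sobic.010G185200 had 17.7, 16.7 and 24.97 CPM in control, 188.0, 42.5 and 86.4 CPM in moderate and 51.8, 24.1 and 28.5 CPM in severe libraries. The moderate libraries lay above all control libraries, but the lowest of them lay below severe replicate 1. The rise in moderate against control was 2.42 (SE 0.74) on the log2 scale (edgeR adjusted p = 0.0152), or 1.72 without moderate replicate 1. It was no longer called without control replicate 1 (log2 2.34, edgeR adjusted p = 0.0698) or control replicate 2 (log2 2.30, edgeR adjusted p = 0.0681). This gene overlaps Sobic.010G185250 on the opposite strand over 1310 bp, and since the counting is not stated to use strand, their reads cannot be told apart. Sobic.010G185250 had 80 counts in all, against 11023 for Sobic.010G185200.

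Sobic.004G084900 (chromosome 4, 7048315 to 7052007, plus strand) had nearly equal levels in the control libraries. It had 5.40, 5.12 and 5.91 CPM in control, 88.5, 32.3 and 58.8 CPM in moderate and 3.90, 2.19 and 3.65 CPM in severe libraries. The 3 groups did not overlap at any point, with severe the lowest. Its rise in moderate against control was 3.45 (SE 0.77) on the log2 scale (edgeR adjusted p = 0.00162) and was called under every alternative run, at 3.08 to 3.92. Severe against control gave -0.76 (SE 0.42) and was not called (edgeR adjusted p = 0.0984), although it was called with total-count scaling, with the replicate number as a block and without moderate replicate 2 (edgeR adjusted p = 0.0336 to 0.0420).

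Sobic.010G138800 (chromosome 10, 23209632 to 23214961, minus strand) was nearly undetected in severe leaves, with 17 counts in all. Its levels were 3.92, 6.85 and 7.33 CPM in control, 81.6, 24.1 and 42.7 CPM in moderate and 0.190, 0.801 and 0 CPM in severe libraries. The 3 groups did not overlap. It rose by 3.03 (SE 0.97) on the log2 scale in moderate against control (edgeR adjusted p = 0.0197), and this call was lost when any 1 control library, moderate replicate 1 or moderate replicate 3 was left out (log2 2.49 to 3.19, edgeR adjusted p = 0.0609 to 0.0926). Its severe against control change was -4.08 (SE 1.22), with edgeR adjusted p = 0.00233. This was -6.24 without severe replicate 2, -3.39 without severe replicate 3 and -3.86 without severe replicate 1, and it was called each time.

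Sobic.003G101000 (chromosome 3, 8925092 to 8930536, minus strand) had 2.01, 1.88 and 4.25 CPM in control, 28.7, 9.32 and 17.2 CPM in moderate and 0.762, 1.23 and 0.984 CPM in severe libraries. Its 3 groups did not overlap either. It rose by 2.76 (SE 0.76) on the log2 scale in moderate against control (edgeR adjusted p = 0.00741). It fell by 1.43 (SE 0.61) on the log2 scale in severe against control (edgeR adjusted p = 0.0320). That fall was not called with the replicate number as a block or without control replicate 3, moderate replicate 3, severe replicate 1 or severe replicate 3 (log2 -1.42 to -0.97, edgeR adjusted p = 0.0534 to 0.128).

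Sobic.004G339800 (chromosome 4, 67154250 to 67159910, minus strand) was the least abundant per length in moderate leaves. Its levels were 0.106, 0.609 and 0.960 CPM in control, 5.89, 2.76 and 5.08 CPM in moderate and 1.05, 0.747 and 0.463 CPM in severe libraries. All moderate libraries lay above the other 6. The log2 rise in moderate against control was 3.02 (SE 0.94) with edgeR adjusted p = 0.0162. It was 3.65 without control replicate 3 and was not called without control replicate 2 or moderate replicate 1 or 3 (log2 2.81 to 3.08, edgeR adjusted p = 0.0585 to 0.0676).

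Sobic.001G028500 (chromosome 1, 2241769 to 2246330, minus strand) was the 1 member not called in any of the 3 comparisons. It had 34.2, 34.7 and 31.8 CPM in control, 45.2, 32.7 and 46.4 CPM in moderate and 54.0, 32.2 and 34.8 CPM in severe libraries, and the 3 groups overlapped. The log2 change was 0.30 (SE 0.26) in moderate against control (edgeR adjusted p = 0.434), 0.26 (SE 0.26) in severe against control (edgeR adjusted p = 0.360) and -0.04 (SE 0.25) in severe against moderate (edgeR adjusted p = 0.897). Scaling by total counts alone gave 0.78 in moderate against control (edgeR adjusted p = 0.0420) and -0.92 in severe against moderate (edgeR adjusted p = 0.00712), but that scaling also moved the median of all genes by 0.48 and -0.78, and relative to those shifts the changes were 0.30 and -0.14. The gene overlaps Sobic.001G028400 on the opposite strand over 587 bp. That neighbour had 8733 counts, against 7183 for Sobic.001G028500, and their reads cannot be told apart in the overlap.

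**Figure D2:**
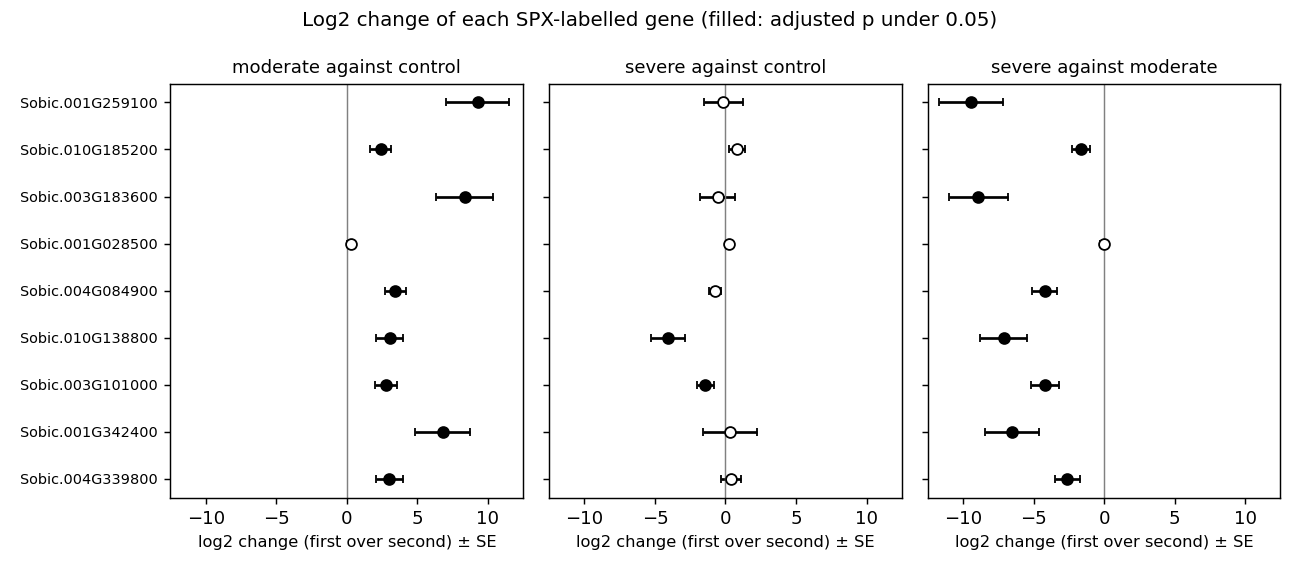
Log2 change of each SPX-labelled gene ± SE in 3 comparisons of 3 libraries against 3, with filled points for adjusted p under 0.05. Moderate against control has 8 filled points, all above 0, severe against control has 2, both below 0, and severe against moderate has 8, all below 0.

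Severe against moderate asked how the genes differed between the soils of 5‰ and 3‰ salt. The falls spanned a wide range, from -9.44 (SE 2.29) on the log2 scale for Sobic.001G259100 (edgeR adjusted p = 3.196e-04) to -1.60 (SE 0.63) for Sobic.010G185200 (edgeR adjusted p = 0.0211). Between them, all called, lay Sobic.003G183600 at -8.90 (SE 2.12), Sobic.010G138800 at -7.11 (SE 1.67), Sobic.004G084900 at -4.21 (SE 0.89), Sobic.003G101000 at -4.19 (SE 0.99) and Sobic.004G339800 at -2.62 (SE 0.89). For Sobic.001G342400 the pooled moderate counts were 90.5 times those of severe, with a 95% counting interval of 30.8 to 441. In 7 of the 9 genes the severe and moderate libraries did not overlap, as in 69.6% of all tested genes.

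Single libraries moved some of these falls. Without moderate replicate 1 the log2 changes were -7.46 for Sobic.001G259100 and -7.58 for Sobic.003G183600. Sobic.003G183600 read -9.62 without severe replicate 2. Sobic.010G138800 read -9.27 without severe replicate 2 and -6.44 without severe replicate 3. The fitted change of Sobic.001G342400, -6.50 with all libraries, ranged from -7.22 to -5.01 without severe replicate 2 or 3 or moderate replicate 1. Sobic.010G185200 was no longer called without moderate replicate 1, severe replicate 2 or severe replicate 3 (log2 -1.49 to -0.93, edgeR adjusted p = 0.0550 to 0.0836). Without severe replicate 1 it was called at -2.01, and the other 7 calls also held.

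**Figure D3:**
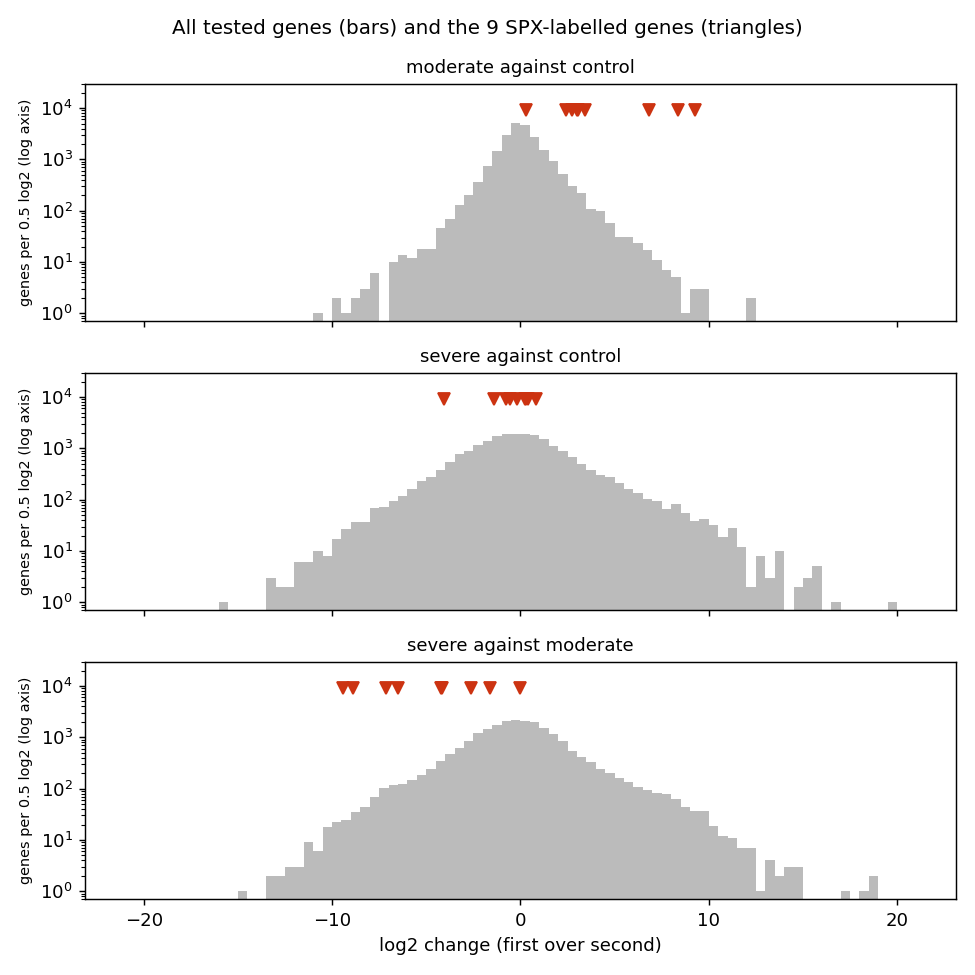
Number of tested genes per step of 0.5 in log2 change (grey bars, log axis) and the log2 changes of the 9 SPX-labelled genes (triangles, height without meaning) in 3 comparisons. The triangles lie at 0.30 to 9.28 in moderate against control, -4.08 to 0.81 in severe against control and -9.44 to -0.04 in severe against moderate.

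In severe against control leaves the members lay close to the middle of all genes. Their median log2 change was -0.16, against -0.19 over all tested genes. Apart from the 2 that fell, the log2 changes were -0.76 to 0.81. In 3 of the 9 genes the severe and control libraries did not overlap, as in 72.1% of all tested genes. The genes at that contrast's upper end were Sobic.010G185200, at 0.81 (SE 0.55; 0.40 without severe replicate 1) and edgeR adjusted p = 0.1797, and Sobic.004G339800, at 0.39 (SE 0.71) and edgeR adjusted p = 0.624. The missed threshold does not show that severe and control leaves were alike, since the SE was 1.38 for Sobic.001G259100 and 1.22 for Sobic.003G183600 on the log2 scale.

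In 7 of the 9 genes every moderate library was above every control and severe library, where 12.2% of all tested genes had this pattern. The other two were Sobic.001G028500 and Sobic.010G185200. In 8 of the 9 the moderate and control libraries did not overlap, as in 55.9% of all tested genes.

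The order of the genes within the family differed between groups. Levels of different genes were compared in FPKM, the authors' value per gene length, whose scaling between libraries does not follow the library totals alone. Sobic.001G028500 had 13.6 FPKM from 567 counts in severe replicate 1, of 20543646 assigned reads. It had 7.17 FPKM from 604 counts in severe replicate 2, of 21842574 assigned reads. Gene length in the table equals the genomic span for 34397 of 35281 genes and for all 9 SPX-labelled genes, so introns are counted in it and genes with much intron sequence read too low. In control leaves Sobic.001G028500 led with 7.13 ± 0.280 FPKM, followed by Sobic.010G185200 with 4.44 ± 1.05 FPKM and Sobic.004G084900 with 1.44 ± 0.117 FPKM (SD, n = 3 each). These 3 did not overlap with each other. From the third on, each gene overlapped with the next, from Sobic.010G138800 at 1.10 down to Sobic.001G342400 at 0.0294 FPKM.

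In moderate leaves Sobic.001G259100 and Sobic.003G183600 led with 122 ± 159 and 99.3 ± 106 FPKM (SD, n = 3 each), and Sobic.001G028500 came in place 6 with 8.79 ± 1.63 FPKM. Because of the spread between moderate libraries, every gene of that order overlapped with the next, except Sobic.003G101000 (3.28 ± 1.76 FPKM) with Sobic.004G339800 (0.783 ± 0.282 FPKM). In severe leaves Sobic.001G028500 led again with 9.38 ± 3.68 FPKM and overlapped with Sobic.010G185200 at 8.59 ± 4.52 FPKM. Sobic.004G084900 followed at 0.922 ± 0.309 FPKM, clear of both neighbours, and the remaining 6 were at 0.188 FPKM or less.

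Summed over the 9 genes, the level was 14.2 to 17.0 FPKM in control, 629.9, 73.8 and 154 FPKM in moderate replicates 1 to 3, and 29.3, 14.5 and 15.3 FPKM in severe replicates 1 to 3. Sobic.001G028500 and Sobic.010G185200 made up 73.0 to 79.4% of that sum in control, 8.28 to 22.2% in moderate and 88.5 to 93.7% in severe libraries. Sobic.001G259100 and Sobic.003G183600 made up 2.74 to 3.95%, 56.6 to 83.3% and 0.477 to 3.40% in the same 3 groups. Neither range overlapped between moderate and the other groups. The sum in severe replicate 1 was the highest of the severe libraries, and that library has the lowest scaling factor of the 9.

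**Figure D4:**
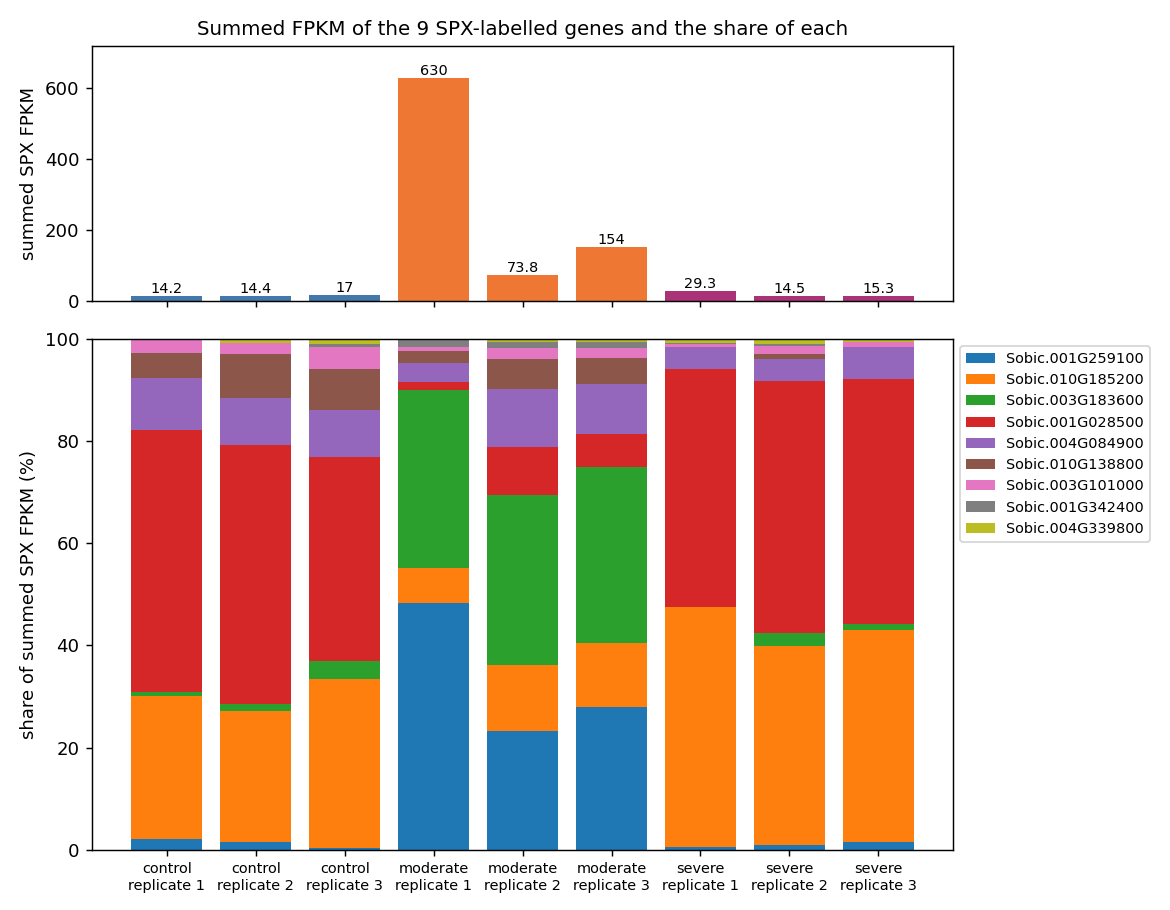
Summed FPKM of the 9 SPX-labelled genes in each library (upper bars) and the share of each gene in that sum in percent (lower bars), with control, moderate and severe libraries from left to right. The upper bars reach 73.8 to 629.9 in moderate and 14.2 to 29.3 elsewhere, and the blue and green parts (Sobic.001G259100 and Sobic.003G183600) fill 56.6 to 83.3% of the lower bar in the moderate libraries and at most 3.95% elsewhere.

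The genes moved together between the moderate libraries as well. In 8 of the 9 genes moderate replicate 1 was the highest, replicate 3 the middle and replicate 2 the lowest moderate library, an order found in 22.2% of all tested genes. The highest was 17.4 times the lowest for Sobic.001G259100, 10.9 times for Sobic.001G342400 and 8.84 times for Sobic.003G183600. For the 6 genes with longer spans it was 1.42 to 4.42 times. Over all 9 libraries, Pearson's r between the log2 profiles of 2 genes was 0.58 to 0.99 (median 0.92) in the 28 pairs without Sobic.001G028500 and 0.11 to 0.70 (median 0.38) in the 8 pairs with it. These values describe 9 libraries in which group differences dominate, and the genes of a pair share each library's scaling.

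**Figure D5:**
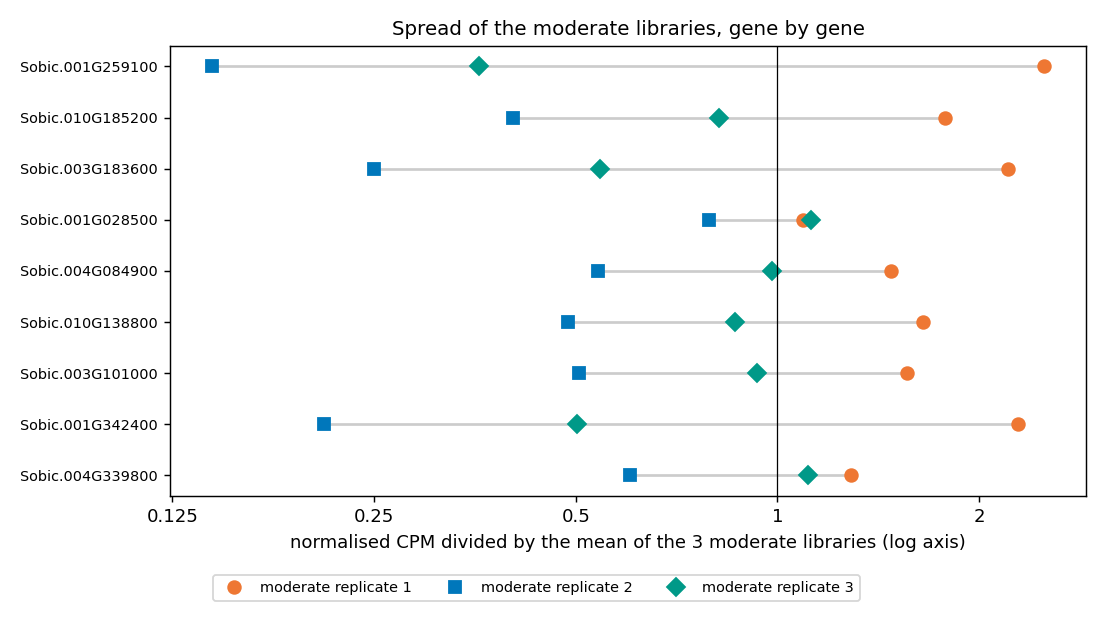
Normalised CPM of each SPX-labelled gene in moderate replicates 1, 2 and 3, divided by the mean of those 3 libraries (log axis). Replicate 1 is at the right in every row but that of Sobic.001G028500, and the rows range from 1.42-fold to 17.4-fold in width.

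Other genes with a similar profile were looked for among 14861 tested genes outside the SPX label with a mean of at least 5 CPM. The measure was Pearson's r over the 9 libraries with the mean of the members' standardised log2 profiles, and 22 genes were over 0.95. The highest was Sobic.007G211900 (r = 0.990), with no family label, which averaged 0 CPM in control, 28.5 ± 26.4 CPM in moderate and 0.0317 ± 0.0550 CPM in severe libraries (SD, n = 3 each). Sobic.004G017800 (r = 0.986) carries the label of ubiquitin-conjugating enzymes and averaged 44.8 ± 7.32, 168.6 ± 73.5 and 46.2 ± 14.7 CPM in control, moderate and severe libraries. Then came Sobic.003G102800 (r = 0.980, no label), at 24.6 ± 17.2 CPM in moderate and with no count in the other 6 libraries, and Sobic.010G140500 (r = 0.976, U-box label), at 3.93 ± 0.246, 8.82 ± 2.80 and 3.32 ± 0.949 CPM in control, moderate and severe. Sobic.004G287000 (r = 0.973, no label) averaged 8.06 ± 2.56, 83.1 ± 77.02 and 6.36 ± 1.44 CPM in the same order. For Sobic.001G259100 by itself the most alike were Sobic.007G211900 (r = 0.995), Sobic.003G102800 (r = 0.992) and Sobic.001G021000 (r = 0.987, no label). All of these share the libraries and the order of the moderate replicates with the SPX-labelled genes, and no p is given for them.

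The 2 nearest genes on each side of the 9 members came to 36, of which 22 were tested. In moderate against control 2 rose and 1 fell, a share near the 8.94% and 8.17% of all tested genes, and their median log2 change was -0.03. Sobic.003G100900, with a collagen repeat label, lies 7 bp from Sobic.003G101000 on the opposite strand. It averaged 5.80 CPM in moderate and 0.222 CPM in control leaves, a log2 rise of 4.67 (SE 1.03) with edgeR adjusted p = 0.00148, and 0.478 CPM in severe leaves. The other that rose was Sobic.010G185250 (log2 2.88 (SE 0.99), edgeR adjusted p = 0.0287), which overlaps Sobic.010G185200 as said. Sobic.001G259000, which lies 85 bp from Sobic.001G259100 on the opposite strand, averaged 16.04 CPM in moderate and 22.9 CPM in control leaves and was not called (log2 -0.51 (SE 0.50), edgeR adjusted p = 0.493).

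Families known to hold other parts of phosphate supply were counted by their labels, which do not tell which members act there. Calcineurin-type phosphoesterases (Metallophos) include the purple acid phosphatases, which free phosphate from organic esters, but also protein phosphatases. Of 53 tested, 10 rose and 3 fell in moderate against control leaves, with a median log2 change of 0.12, where 8.94% of all tested genes rose and 8.17% fell. The shares of the label were 18.9% and 5.66%. Sobic.001G442300 averaged 216 ± 155 CPM in moderate and 11.1 ± 3.49 CPM in control leaves, a log2 rise of 4.28 (SE 1.03) with edgeR adjusted p = 0.00288 (3.56 without moderate replicate 1), and 0.422 ± 0.247 CPM in severe leaves. In the opposite direction, Sobic.008G189500 averaged 178 ± 39.1 CPM in moderate and 3521 ± 1029 CPM in control leaves (log2 -4.30 (SE 0.95), edgeR adjusted p = 0.00153). Sobic.006G067400 fell to 39.7 ± 1.18 CPM in moderate and to 13.4 ± 3.64 CPM in severe leaves, against 110.6 ± 8.63 CPM in control leaves. In severe against control leaves 19 of the 53 rose (35.8%, against 31.6% of all tested genes) and 13 fell (24.5%, against 34.9%), among them Sobic.010G205200 at 824 ± 128 CPM in severe and 117 ± 17.2 CPM in control, and Sobic.002G004600 at 0.645 ± 0.245 CPM in severe and 27.2 ± 5.13 CPM in control.

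Ubiquitin-conjugating enzymes (UQ_con) include PHO2 of Arabidopsis, which marks phosphate exporters and transporters for degradation. Of 46 tested, 5 rose and 0 fell in moderate against control leaves, with a median log2 change of 0.30. The 10.9% that rose is near the 8.94% of all tested genes, of which 8.17% fell, with a median log2 change of 0.01. Every moderate library was above the other 6 in 10 of the 46, beside 12.2% of all tested genes. Sobic.004G017800, whose profile was among the most alike to the SPX-labelled genes, rose by 1.91 (SE 0.55) on the log2 scale (edgeR adjusted p = 0.00986), or by 1.85 without control replicate 1, where it just missed the threshold (edgeR adjusted p = 0.0508). Sobic.003G005600 rose by 1.99 (SE 0.52) to 42.3 ± 2.08 CPM, against 10.7 ± 2.72 CPM in control, and averaged 149 ± 57.6 CPM in severe leaves. Sobic.001G061500 averaged 112 ± 13.0 CPM in moderate and 43.5 ± 2.68 CPM in control leaves (log2 1.37 (SE 0.39), edgeR adjusted p = 0.00964, or 0.0511 without control replicate 2). In severe against control leaves 11 rose (23.9%, against 31.6% of all tested genes) and 9 fell (19.6%, against 34.9%), among them Sobic.003G006200 at 51.8 ± 6.59 CPM in severe and 15.5 ± 0.912 CPM in control. A locus with this label but no Sobic identifier fell to 0.881 ± 0.839 CPM in severe leaves, against 69.9 ± 7.81 CPM in control (log2 -6.22, or -7.28 without severe replicate 2).

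Ribonucleases of the T2 type include enzymes that recycle phosphate from RNA in starved or senescing plant tissue. Of 5 tested, 1 rose in moderate against control leaves, where 8.94% of all tested genes rose. This was Sobic.003G388300, at 1.18 ± 0.579 CPM in moderate and 0.0675 ± 0.0585 CPM in control. In severe against control leaves 4 of the 5 rose, where 31.6% of all tested genes rose. Sobic.002G278800 averaged 733 ± 774 CPM in severe and 9.64 ± 1.99 CPM in control (log2 6.25, or 4.96 without severe replicate 3). Sobic.002G278700 averaged 542 ± 871 CPM in severe and 0.535 ± 0.303 CPM in control (log2 9.97, or 6.32 without severe replicate 3). Sobic.007G137700 averaged 175 ± 199 CPM in severe and 3.51 ± 1.32 CPM in control (log2 5.64, or 4.12 without severe replicate 1). These 3 genes were highest in severe leaves, where 8 of the 9 SPX-labelled genes were lower than in moderate leaves, and the difference between the families was not tested.

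Over the 3 labels together, 19 of 104 tested genes had every moderate library above the other 6, beside the 12.2% of all tested genes with that pattern. No gene of the table carries the labels GDPD, Acid_phosphat_B or EXS, which were also looked for.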

How the data were processed

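Per the submitters' processing notes, the authors aligned reads with HISAT2 2.0.5 and used DESeq2 1.20.0. The counting tool, its strand setting and the build are not given in the sources here, and coordinates are those of the deposited table. Raw counts per gene were deposited by the authors without normalisation and were used for every test. FPKM, deposited by the authors, served to compare levels between genes and to give their sum and shares in each library, and was not tested. The log2 fold changes and adjusted p-values deposited by the authors were used to count the authors' calls.

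The tools were edgeR 4.0.16, with DESeq2 1.42.0 as an alternative and limma 3.58.1 underneath, run under R 4.3.3. The steps were filterByExpr with the 3 groups, TMM scaling, a quasi-likelihood fit over all 9 libraries, F-tests, 2-sided, and Benjamini-Hochberg adjustment over all 22356 tested genes with a threshold of 0.05. SE was obtained from the log2 change and the normal quantile that matches its p-value. Likeness used log2(CPM + 0.5). The procedure was checked on simulated counts. Replicates of a group differed by more than counting noise (chi-square per degree of freedom 18.9 to 339). Alternatives were other scaling, no filter, DESeq2, only the groups compared, a replicate block and leaving out each library.

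The members and lists were chosen with earlier results of these data known. All members are named. From Metallophos, UQ_con and the T2 ribonucleases, up to 3 called genes with the smallest adjusted p per comparison with control are named. From the labels added after the data were seen, some such genes or none are named. The reference table matched none of the gene identifiers, so family labels defined the lists.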

Additional observations from a re-analysis of the deposited data

How the results depend on the processing

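No called SPX change turned its direction under the alternatives run: of 402 values under alternatives, 362 kept direction and side of the threshold, 18 were no longer called, 5 became called and 17 changed sign, 0 of these among called genes. The number of SPX-labelled genes called in moderate against control was 8 or 9 in every alternative with all libraries and 5 to 8 without 1 library (5 without control replicate 2, 6 without control replicate 1 or moderate replicate 1 or 3). In severe against moderate it was 8 or 9 with all libraries (9 with total-count scaling) and 7 to 8 without 1 library. In severe against control it was 2 or 3 with all libraries and 1 to 3 without 1 library (1 without control replicate 3, moderate replicate 3 or severe replicate 1 or 3). The cause was not tested. Genes of the other labels called in moderate against control numbered 19, or 33 with total-count scaling, which shifts all genes, and 9 to 28 without 1 library (9 without control replicate 1 or 2, 11 without moderate replicate 1).

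Only changes that were not called changed sign, and the values with the changed sign lay at -0.41 to 0.44 on the log2 scale. Some of these changes moved further without a change of sign, up to 3.57 for Sobic.001G342400. With total-count scaling, severe against control gave -0.14 for Sobic.001G028500, -0.030 for Sobic.001G342400 and -0.040 for Sobic.004G339800. Without 1 library, severe against control spanned -0.0082 to 0.39 for Sobic.001G028500, -0.59 to 0.26 for Sobic.001G259100, -1.28 to 0.44 for Sobic.003G183600, -0.41 to 3.57 for Sobic.001G342400 and -0.10 to 1.01 for Sobic.004G339800. Severe against moderate for Sobic.001G028500 was 0.10 with RLE factors, 0.090 with DESeq2 and -0.31 to 0.091 without 1 library. The labels do not say whether libraries of equal replicate number share more than the number. Deviations of same-numbered libraries correlated at -0.03 to 0.26, not over 0.1 in every pair. The correlation was positive in every such pair but replicate 2 of moderate and control. Differently numbered libraries gave -0.26 to 0.13, mostly negative values. Whether equal numbers share a batch was not tested. With the number as a replicate block, 8 genes were called in moderate against control, 8 in severe against moderate and 2 in severe against control, Sobic.001G259100 read 0.11 in severe against control, Sobic.004G084900 replaced Sobic.003G101000 among the 2, and all tested genes called numbered 3533 of 22356 in moderate against control. The number of all tested genes called there was 3825, or 9503 with only the 6 libraries compared, 5962 with DESeq2 and 1488 (without control replicate 1) to 7368 (without severe replicate 1) when 1 library was left out. With total-count scaling it split into 3707 higher and 704 lower, against 1998 and 1827, and severe against moderate into 3729 higher and 10094 lower, against 6624 and 7506. The other labels in severe against moderate split into 15 higher and 54 lower under that scaling, against 32 and 35. Depth limits the SPX-labelled genes at or below about 3 counts in a library, where severe and control could not be told apart. Before normalisation this was at most 0.169 CPM, but 2 counts in severe replicate 1 already read 0.190 normalised CPM.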

Other observations

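Some labels were added after the data were seen, and their counts stand beside 8.94% of all tested genes higher and 8.17% lower in moderate against control leaves. Inorganic pyrophosphatases, which split pyrophosphate into phosphate, had 1 of 6 tested genes higher and 1 lower in moderate against control leaves. The one that rose, Sobic.009G016000, averaged 196 ± 84.9 CPM in moderate and 20.9 ± 3.39 CPM in control leaves (log2 3.23 (SE 0.84), edgeR adjusted p = 0.00533) and 15.6 ± 10.8 CPM in severe leaves. The one that fell, Sobic.004G311100, averaged 297 ± 39.0 CPM in moderate and 1147 ± 103 CPM in control leaves. The major facilitator label MFS_1, which covers carriers of many solutes, had 7 of 36 higher (19.4%) and 2 lower (5.56%). Its gene with the smallest adjusted p, Sobic.005G024700, averaged 18.03 ± 3.94 CPM in moderate and 0.359 ± 0.0847 CPM in control leaves (log2 5.63 (SE 1.06), edgeR adjusted p = 7.355e-04) and 38.2 ± 13.6 CPM in severe leaves. The next, Sobic.004G282900, averaged 538 ± 294 CPM in moderate and 7.33 ± 5.18 CPM in control leaves (log2 6.20, or 6.89 without control replicate 3) and 0.141 ± 0.0632 CPM in severe leaves. Sugar transporter-type carriers (Sugar_tr), the fold that includes the PHT1 phosphate importers, had 9 of 64 higher (14.1%) and 2 lower (3.12%). Every moderate library was above the other 6 in 13 of 64 Sugar_tr genes, 7 of 36 MFS_1 genes and 1 of 6 pyrophosphatases, beside 12.2% of all tested genes. Of 3 class A acid phosphatases 1 fell in moderate against control leaves. Of 4 tested genes of the Phosphoesterase label 1 rose and 1 fell in severe against control leaves, where 31.6% of all tested genes rose and 34.9% fell.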
